A study of Drosophila melanogaster with 8 samples.

Results

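The control discs of this series were 2 of its 8 samples, chosen by their label alone: the 2 arrays of eye-antennal imaginal discs in which the eyeless driver ey-GAL4 expressed a pair of UAS-lacZ transgenes, which encode a bacterial enzyme used as a neutral cargo. The discs came from wandering third-instar larvae of Drosophila melanogaster, with 100 disc pairs in each sample, and 100 ng of their total RNA was amplified from the 3′ end into biotin-labelled copies. The series uses these discs as the baseline for discs that express vestigial or simjang, which are not described here. Every disc measured carried the driver and the lacZ transgenes, so the values describe driver-carrying discs and not discs free of transgenes. The label gives no sex, no cell sorting and no region of the disc, so each value is an average over the eye, antennal and head parts and over whatever tissue came off with them.

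The eye-antennal disc is a folded epithelial sac that forms the compound eye, ocelli, antenna, maxillary palp and most of the head capsule. A network of retinal determination genes, headed by the Pax6 genes ey and toy, first makes eye tissue. The morphogenetic furrow, a wave of apical constriction driven by Hedgehog and Dpp, then crosses the eye field, and behind it Atonal, Notch and the EGF receptor set up photoreceptor clusters. In late third-instar discs the furrow is on its way, so dividing progenitors, furrow cells and young photoreceptors all lie in 1 disc beside an antennal field patterned by Dll and spineless.

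Each array gave 1 MAS5 signal per probe set, a probe set being the group of short probes for 1 transcript. Both arrays had been scaled to the same trimmed mean, and their medians were 43.0 and 44.0 with 75th percentiles of 562.9 and 566.8. All pairs of values below give lacZ replicate 1 and then replicate 2, and where several genes share a clause each pair is joined by a slash. A percentile is the share of the 18769 probe sets other than array controls with a signal at or below the value, averaged over both arrays. Signals of different probe sets also depend on how well their probes bind, so a percentile places a gene in a broad band and does not count its RNA molecules. Among 17 control probe sets named Tag, 1 and 0 exceeded the array median, so a gene above the median on both arrays lay above nearly all of these controls. By that measure 7220 of 11982 named genes, or 60.3%, lay above the median on both arrays, 30.9% above the 75th percentile and 11.6% above the 90th. These shares are the background for every group below. The 46 gene lists and 18 name-based families used here were chosen with knowledge of fly development and with earlier results of these data known. The lists held 667 distinct genes, of which 522 were measured and 145 were not analysed here. Of the measured ones 429 or 82.2% lay above the median on both arrays and 266 or 51.0% above the 75th percentile. With 2 arrays of 1 genotype there is no comparison to test, and no p-value is given. The label gives the replicates as biological, with no further detail on separate crosses or days.

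The 2 samples differed in array controls. The probe set for the 5′ end of Act5C had signals of 1489.9 and 7862 and the one for its 3′ end 21889.5 and 27928.5, so replicate 2 was 5.28-fold higher at the 5′ end and 1.28-fold at the 3′ end. The eIF-4a control was 2.18-fold higher on replicate 2 at its 5′ end and 1.05-fold at its 3′ end. Another actin control was 2.33-fold higher on replicate 2 at its 5′ end and 1.06-fold at its 3′ end. For GAPDH the ratio of replicate 2 to replicate 1 was 0.844 at the 5′ end and 0.744 at the 3′ end in one set of probes, and 1.11 and 0.738 in another. In each of these sets the ratio was higher at the 5′ end than at the 3′ end. Another 24 control probe sets are for the poly-A spike controls dap, lys, phe and thr, which are not fly genes. Of these 21 were higher on replicate 1, with a median ratio of replicate 1 to replicate 2 of 2.58. The 9 hybridisation controls had a median ratio of 1.08. The part of these controls in the differences between the arrays was not tested. Of 1094 genes with several probe sets, 322 or 29.4% had at least 1 above and 1 below the median on both arrays, so a gene's band can depend on the probe set. Here each gene is given by its brightest probe set, and among the genes described below Awh, Hr4, MTA1-like, TpnC73F, aPKC, ap, bnl, brp, bsk, disco-r, nub, pio, svp and tkv had another one below the median on both arrays.

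The retinal determination genes are the first group described. Their counts do not check the tissue label, since some lists of other tissues had similar shares above the median. Examples were 13 of 14 ring gland genes and 14 of 15 wing genes, though the wing list shares genes such as tsh with lists of the eye and head. Lists of salivary gland, germ line and testis, and gut had lower shares, at 20%, 26.7% and 33.3%. All 11 measured retinal determination genes lay above the median on both arrays, and 8 lay above the 75th percentile, with a median percentile of 83.5 against 61.9 over all genes. In these bulk samples, more cells of a type and more RNA per cell cannot be told apart. The Pax6 gene toy, which acts upstream of ey in the embryo, had signals of 2669.5 and 3238. The gene ey itself, whose enhancer drives the GAL4, had 629.6 and 466, and its 2 values lay on either side of the 75th percentile. The phosphatase and coactivator gene eya reached 2879 and 3854, and its DNA-binding partner so reached 894 and 934. The Ski-family nuclear factor gene dac had 3876 and 2941. All 5 core genes thus lay well above the array median, with eya, dac and toy above the 90th percentile.

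The related pipsqueak-type factor genes danr and dan had 2064/2326 and 1105/1068. The Six3-family gene Optix had 1108 and 917. The zinc-finger gene tsh, which with homothorax marks cells ahead of the furrow, had 786 and 767, and its relative tio had 57.2 and 93.7, just above the median. The Pax gene eyg, which promotes growth of the eye field, had 162 and 285. No retinal determination gene was over 2-fold apart between the arrays, taken as log2(signal + 3). Of the 7799 genes above the median on at least 1 array, 6.48% were.

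Genes of the furrow and of the first neural cells had signal too. All 10 measured members of that group lay above the median and 5 above the 75th percentile on both arrays. The proneural gene ato, which founds the R8 photoreceptor, had signals of 1546 and 1456, and its partner da had 2492 and 3879. The inhibitors of proneural factors lay in the top band: emc, for an HLH protein without a DNA-binding domain, had 8867 and 10672, and hry, for the Hairy repressor expressed ahead of the furrow, had 6339 and 5389. The R8 factor gene sens had 326 and 345 and ro, which limits R8 number, had 269 and 300.3, both between the median and the 75th percentile. The scute and achaete genes, sc and ac, which act in bristles and ocelli, had 453/638 and 403/422. The asense gene ase, of neural precursors, was the lowest member, just above the median, at 55.9 and 81.4.

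Photoreceptor genes covered the early steps of differentiation. Of 23 measured genes, 21 lay above the median and 10 above the 75th percentile on both arrays. The zinc-finger factor gene gl, needed in all photoreceptors, had 2390 and 2421, and elav, the RNA-binding protein of all neurons, had 1768 and 1625. The ETS repressor gene aop, also called yan, which holds cells undifferentiated, had 3129 and 3713, and sina and phyl, whose proteins degrade the repressor Tramtrack, had 1598/1719 and 1012/947. Genes of 1 or a few cell types were spread widely, with salr at 213 and 157 and salm at 1685 and 1565. Between these lay sev, the gene for the R7 receptor, at 436 and 484 and lz of the second wave of cells at 636 and 661. So did svp of R3, R4, R1 and R6 at 437 and 487 and B-H1 of R1 and R6 at 567 and 770.2. The photoreceptor surface gene chp had 619 and 551. At the low end were the R8-made Sevenless ligand gene boss at 69.8 and 39.3, on either side of the median, and the zinc-finger gene Kr at 35.9 and 23.2, below it on both arrays.

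Phototransduction genes, which serve the working adult eye, lay mostly between the median and the 75th percentile. Of 12 measured phototransduction genes 10 or 83.3% lay above the median on both arrays, against 60.3% of all genes, and 2 or 16.7% above the 75th percentile, against 30.9%. The group had a median percentile of 60.5, against 61.9 over all genes. The genes above the 75th percentile were Galphaq, the G protein of the cascade, at 1828 and 2167 and the arrestin gene Arr1 at 1139.8 and 640. The kinase gene inaC had 239 and 269, the channel gene trpl had 153 and 125 and the other arrestin gene Arr2 had 123 and 55.8, all above the median. Arr2 was over 2-fold higher on replicate 1. The scaffold gene inaD and the channel gene trp were below the median on both arrays, at 6/3.3 and 13.7/24.4. The rhodopsin genes were not analysed here. Of 9 eye-pigment and lens genes, 4 lay above the median, among them the pteridine enzyme gene pr at 1725 and 1889 and the vesicle-trafficking gene g at 1355 and 1465, while the pigment transporters st and bw lay below it at 33.5/16.1 and 36.9/39.2.

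**Figure D1:**
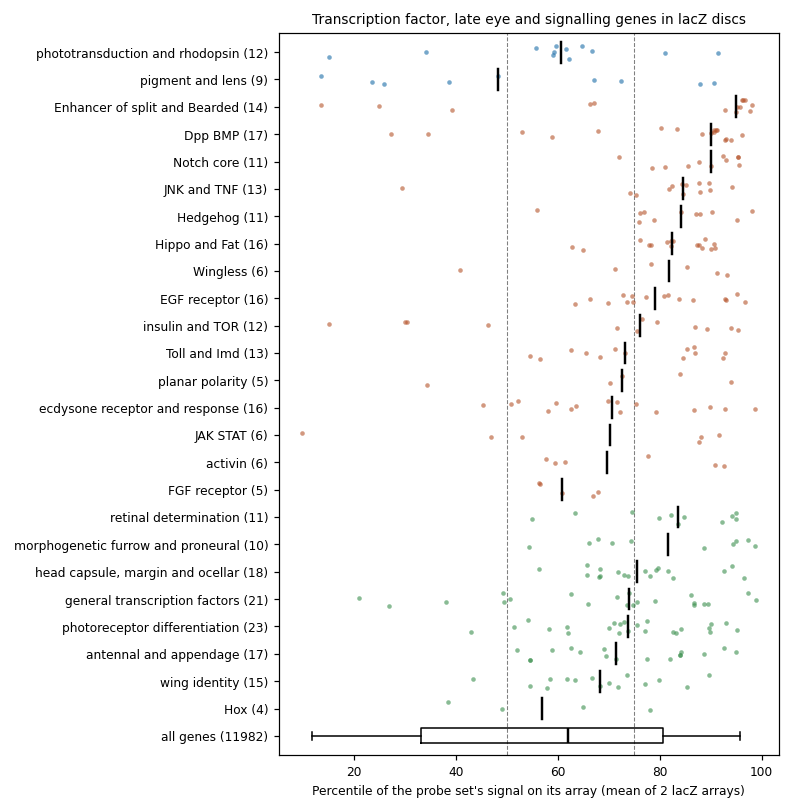
Percentile of each transcription factor, late eye and signalling gene (x axis, mean of the 2 lacZ arrays), 1 point per gene, with the number of genes beside each group name; the black bar is the group median, the box at the bottom holds the middle 50% of all 11982 genes with whiskers from the 5th to the 95th percentile, and dashed lines mark the array median and the 75th percentile. Enhancer of split and Bearded genes had the highest group median and the pigment and lens genes the lowest at 48.1.

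Genes listed for the antennal part of the disc come next. Of these, dac was also in the retinal determination group and B-H1 and B-H2 in the photoreceptor group. Whole discs do not show which part their signal came from. Of 17 antennal and appendage genes, 16 lay above the median on both arrays and 8 above the 75th percentile. The homeobox gene Dll, which makes the distal antenna, had signals of 1184 and 908, and ss, the bHLH-PAS selector of antennal against leg fate, had 408 and 351. The BTB factor gene bab2 had 2224 and 2399.7 and its neighbour bab1 had 72 and 64.5, near the median. The LIM-homeobox genes Lim1 and Awh had 1017/1059.5 and 492/385, and the zinc-finger genes disco and disco-r had 940.1/871 and 1491/1499. The one gene not above the median on both arrays was C15, a homeobox gene of the antennal tip, at 40.2 and 69.3.

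All 18 genes of the head capsule, disc margin and ocelli lay above the median on both arrays, 9 of them above the 75th percentile. The odd-skipped family, which acts at the disc margin, was represented by bowl at 4398 and 4589, drm at 2229 and 2316, sob at 683 and 811 and odd at 672 and 878. The ocellar gene oc, also known as orthodenticle, had 426 and 569, and the engrailed genes en and inv had 806/1095 and 238/310.3. The Iroquois genes of the dorsal eye lay around the 75th percentile, with caup at 736 and 572, mirr at 575 and 465 and ara at 385 and 305. The GATA gene pnr of the dorsal margin had 290.2 and 396. The head gap gene ems stood higher on replicate 2, at 676 and 1143. The genes toy, oc, mirr, ara, caup and Dfd of this group were also in other groups.

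Of the homeotic genes, 4 were measured. Dfd, the Hox gene of the maxillary part of the disc, had 744 and 642, above the 75th percentile on both arrays, and Scr had 307 and 209. The proboscipedia gene pb had 47.1 and 35.4, on either side of the array median, and Antp, whose gain turns antenna to leg, was below the median on both arrays at 23.1 and 22.6. Genes listed for the wing were also looked at in these discs, which carry no wing transgene. Of 15 such genes 14 or 93.3% lay above the median on both arrays, against 60.3% of all genes. None lay above the 90th percentile, against 11.6% of all genes. Above the 75th percentile were 4 or 26.7%, against 30.9% of all genes. Those 4 were salm at 1685 and 1565, bi at 1264 and 1047, tsh and caup, which have roles in the eye-antennal disc too. The wing selector vg was the exception below the median on both arrays, at 29.4 and 28. The wing-pouch gene nub had 175 and 78.9, over 2-fold higher on replicate 1, rn had 109.7 and 116 and ap had 67.6 and 68.6.

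Of 21 broadly used factors 8 lay above the 75th percentile on both arrays. The ATF4 gene crc, of the stress response, had 10722 and 12629.7, and the epithelial factor gene grh had 5377 and 6055. The BTB factor gene lola had 1492 and 1719, the Myc partner gene Max 1502 and 1505, the Snail-family gene esg 1334 and 1237 and Trl, for the GAGA factor, 512 and 544. The mesodermal gene sna and the gut gene cad lay below the median on both arrays, at 21.3/1.7 and 10.7/14.

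**Figure D2:**
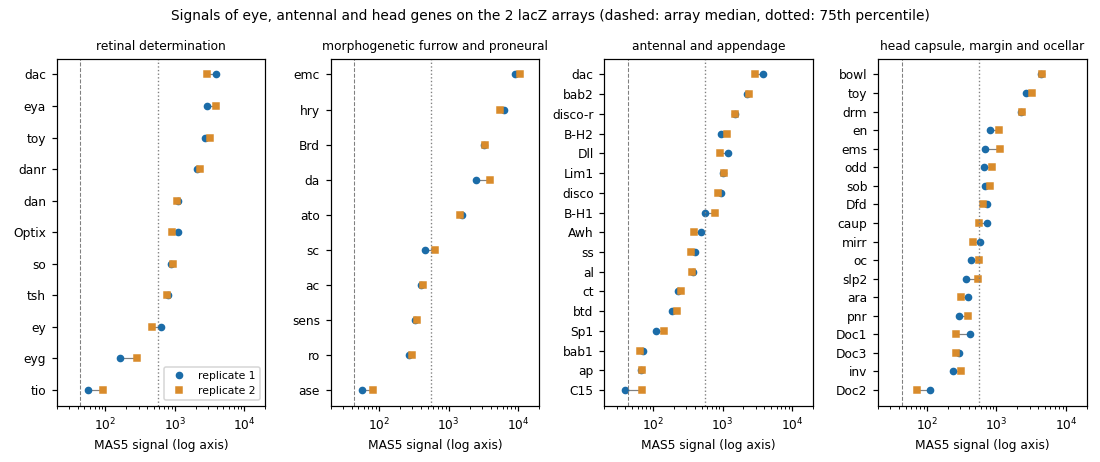
MAS5 signal on a log axis of each measured gene of 4 groups, with a blue circle for lacZ replicate 1 and an orange square for replicate 2; the dashed line is the array median and the dotted line the 75th percentile, each averaged over the arrays. All genes but C15 lie right of the median on both arrays, and none has its 2 points over 2-fold apart.

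Among the signalling pathways, Hedgehog was measured from ligand to output. All 11 genes lay above the median and 9 above the 75th percentile on both arrays. The ligand hh had 1303 and 1496, its exporter disp 623 and 595 and the co-receptors ihog and boi 3523/3461 and 1029/1065. The transducer smo had 1729 and 1714, the kinesin-like gene cos 1523 and 1133, the inhibitor gene Su(fu) 587 and 897, and the transcription factor gene ci 7485 and 7545. The receptor ptc, itself a Hedgehog target, was the lowest member at 71.8 and 94.

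Of 17 genes of the Dpp branch 12 lay above the 75th percentile on both arrays. The BMP ligand dpp of the furrow and margin had 791 and 809, and the second ligand gbb had 2679 and 2988, while the embryonic ligand scw was below the median at 2.7 and 31.7. The type I receptor genes tkv and sax had 4588/4032 and 1812/1803, and the type II receptor gene put had 2383 and 2382. These 3 lay above the 90th percentile on both arrays, and the other type II receptor gene, wit, had 1107 and 898, above the 75th. The transducer Mad had 1759 and 1677, the feedback inhibitor Dad had 2017 and 1790.2 and the glypican dlp, which shapes the gradient, had 1805 and 1787. In the activin branch, the receptor gene babo had 672 and 682, the transducer Smox 1884 and 1818, the ligands mav and Actbeta 2238/2396 and 167/188, and the ligand myo 90.9 and 203, over 2-fold higher on replicate 2.

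For Wingless 6 of 23 listed genes had a probe set with their name, so the pathway was seen in part. The Wnt carrier gene wls had 2309 and 2675, the feedback inhibitor nkd 1827 and 2034, the scaffold gene Axn 1147 and 1144 and the ligand Wnt6 342 and 541. The secreted deacylase gene Notum was below the median on both arrays at 18.9 and 34.9. The ligand wg was not analysed here.

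For Notch signalling, target and core genes were measured, and their RNA signals do not measure the activity of the pathway. Of 14 genes of the Enhancer of split and Bearded families, 9 lay above the 90th percentile on both arrays, or 64.3%, against 11.6% of all genes, and 3 lay below the median. The Bearded-type gene Tom had 7296 and 8024, E(spl)malpha-BFM had 6007 and 7017 and E(spl)m4-BFM had 4724 and 4661. The bHLH repressor genes E(spl)mbeta-HLH, E(spl)m3-HLH, E(spl)mdelta-HLH and E(spl)m7-HLH, which answer Notch directly, had 4372/4195, 3945/4373, 3788/3945 and 2259.8/2458. Not all members were high: E(spl)m5-HLH had 311 and 278 and E(spl)m6-BFM had 8.2 and 12.7, below the median. Upstream, all 11 measured core genes lay above the median and 10 above the 75th percentile. The fucosyltransferase gene O-fut1 had 3235 and 4306, the glycosyltransferase gene fng 3659 and 3449, the protease genes kuz and Psn 1779/1602 and 1955/2560.3, the ubiquitin ligase gene neur 794 and 900.1 and the co-repressor gro 2277 and 2569. The receptor N and the ligand Dl were not analysed here.

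All 16 measured EGF receptor pathway genes lay above the median on both arrays and 9 above the 75th percentile. The ligand spi, which recruits photoreceptors, had 4692 and 5179, and the ligand Krn had 500.1 and 523. The ligand grk, best known from the ovary, had 253 and 185. The receptor Egfr had 489.7 and 622, straddling the 75th percentile. The adaptor gene drk had 2379.7 and 2312, the exchange factor gene Sos had 525 and 570.2, and the kinase gene Dsor1 had 631 and 673. The feedback inhibitors sty and aos had 2753/2145 and 778/879.7.

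In the JAK-STAT pathway the receptor dome at 1469 and 1387 and the transcription factor Stat92E at 2073 and 1994 lay above the 75th percentile on both arrays. The ligand upd1 had 60.9 and 53.6, just above the median, and upd2 was below it at 3.1 and 2.6. Hippo pathway genes were evenly placed, with all 16 measured members above the median and 13 above the 75th percentile but 1 above the 90th. The kinase genes hpo and wts had 1833/1884 and 997/837, the coactivator yki had 1435 and 1471, the protocadherin ds had 1454 and 1218 and the Golgi kinase gene fj had 1698 and 1689. The upstream genes Mer and kibra were the dimmest members, at 217/304 and 205/206.

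Of 13 JNK and TNF genes 10 lay above the 75th percentile on both arrays. The kinase gene bsk had 2759 and 3123, the TNF ligand egr 926 and 939, its receptors grnd and wgn 1214/1682 and 1279/900.1, and the feedback phosphatase gene puc 1102 and 1043. The relaxin-like gene Ilp8, which damaged discs release, was below the median on both arrays at 4.2 and 29.6. Of 12 insulin and TOR genes 8 lay above the median on both arrays and 4 below it. The receptor InR had 1310.3 and 1288, and the kinase genes Akt and S6k had 3087/4157 and 2847/2773. Below the median were the ligand genes Ilp2, Ilp5 and Ilp7, at 9.8/21.1, 14.6/15.5 and 13.9/0.9, and raptor, at 28.3 and 41.4.

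The steroid ecdysone times disc maturation at this stage. The BTB factor gene br, a primary ecdysone target of discs, had 10805 and 9477. The receptor genes EcR and usp had 448/735 and 779.6/711, and the coactivator tai had 423 and 515. In this group 3 of 16 genes were over 2-fold apart between the arrays. The prepupal nuclear receptor gene ftz-f1 had 606 and 221 and the ecdysone-degrading gene Cyp18a1 had 288 and 126, both higher on replicate 1. The receptor gene Hr4 had 74.4 and 235, higher on replicate 2. Among FGF genes, the receptor htl had 293 and 318, the receptor btl 91.6 and 92.6 and the ligands bnl, pyr and ths 389/279, 179.5/147 and 85.3/93.4, with 0 of 5 genes above the 75th percentile. Of 13 Toll and Imd genes all lay above the median, with the inhibitor cact at 2527 and 2278 and the factor genes Rel and dl at 1115/1158 and 501/494.

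Structural genes of epithelia lay in the upper bands. All 12 measured septate junction genes, which seal epithelia, lay above the 75th percentile on both arrays, against 30.9% of all genes, and 9 above the 90th. Examples were Lac at 6807 and 7124, Gli at 6771 and 6864, sinu at 5503 and 5464 and Nrg at 4776 and 4938. At the adherens junction alpha-Cat had 5254 and 5556 and p120ctn 4896 and 5109, while the E-cadherin gene shg had 377 and 583. The apical determinant crb had 2005 and 1681, and par-6 and aPKC had 1810.2/1684 and 1929/1289. Of 13 basement membrane and integrin genes 12 lay above the 75th percentile, among them the integrin gene mys at 2694 and 2729, the laminin genes LanA and LanB1 at 2981/2299.7 and 2287/2364, and the collagen IV genes Col4a1 and vkg at 879.7/971 and 767/739.

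Among cytoskeletal genes, the cofilin gene tsr had 32564 and 30731, the tubulin gene betaTub56D had 21799.7 and 24413, the profilin gene chic had 18805 and 20929.5 and Moe, the moesin gene, had 14137 and 14942. The testis tubulin betaTub85D and the ovarian alphaTub67C lay below the median at 10.9/10.3 and 23.6/10.8. All 18 measured cell division genes lay above the 75th percentile on both arrays. PCNA, the replication clamp, had 5894 and 5353, the mitotic cyclin CycB had 3538 and 3177, CycE had 1669.9 and 1397, and the replicative helicase genes Mcm2, Mcm3, Mcm5 and Mcm6 had 1708/1447, 1426/1296, 1351/1282 and 2839/2587. Among cell death genes, the caspase genes Dronc and Dcp-1 had 719.8/1157 and 606/803, and the inhibitor Diap2 had 1054 and 1017, while the death activators grim and skl lay below the median at 10/12.1 and 18.7/22.6.

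Chromatin genes lay mostly in the upper bands. Of the NuRD remodelling complex, Caf1-55 had 3542 and 4729, HDAC1 2620.2 and 2920, the ATPase gene Mi-2 1836 and 1920.2, MTA1-like 1328 and 1065 and simj 479 and 727, whose values lay on either side of the 75th percentile. All 11 Polycomb group genes lay above the median and 7 above the 75th percentile, with E(z) at 424 and 516 and Pc at 386 and 340.2. Of 10 trithorax group genes 9 lay above the 75th percentile, with the Brahma ATPase gene brm at 4269 and 3961 and mor at 3017 and 3090.1.

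Genes of protein synthesis filled the top of the arrays. Of the 25 genes with the highest mean signal, 18 encode cytosolic ribosomal proteins, led by RpL41 at 45997 and 39991, RpLP1 at 43009 and 38281, RpLP2 at 42420.4 and 36345 and RpL15 at 41135 and 36559.5. The other 7 were CG34227 at 39375 and 31023, CG15353 at 37929 and 32339, tsr, the elongation factor gene eEF5 at 32869 and 29279, the small heat shock gene Hsp27 at 31424 and 30563, the chaperone gene Hsc70-4 at 30517 and 30664 and lncRNA:CR33938 at 30379 and 28662. Among the top 100 genes 29 were cytosolic ribosomal, 4 translation factor, 4 respiratory chain and 4 heat shock genes. Whether the brightest probe sets were saturated was not tested.

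Within these families the standard subunits and their paralogues fell into separate bands. Of 41 cytosolic ribosomal genes 32 lay above the 90th percentile on both arrays, and the rest were RpLP0-like, RpS5b, RpL22-like, RpS19b, RpS28a, RpS10a, RpL37-2, RpS28-like and RpL10Aa, the last at 3.3 and 18.9. Of 40 proteasome genes 26 lay above the 90th percentile, such as Prosbeta7 at 10553 and 12737 and Rpn6 at 8119.5 and 10139, and all 14 others bear the suffix R or T of variant subunits, several of which are known from testis, such as Prosalpha6T at 2.5 and 2. Of 66 respiratory chain and ATP synthase genes 42 lay above the 90th percentile and 17 below the median on both arrays. All but 1 of those 17 carry the L of a like-named copy, for example ND-24L at 2.7 and 3.4, the exception being ND-B8 at 14.5 and 1.2. Mitochondrial ribosomal genes lay in a narrow band instead: all 71 were above the median, 67 above the 75th percentile and 10 above the 90th, with a range from mRpL45 at 237 and 236 to mRpL33 at 3112 and 2793. Probe sets of near-identical copies can share transcripts, so the values of like-named copies are uncertain.

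**Figure D3:**
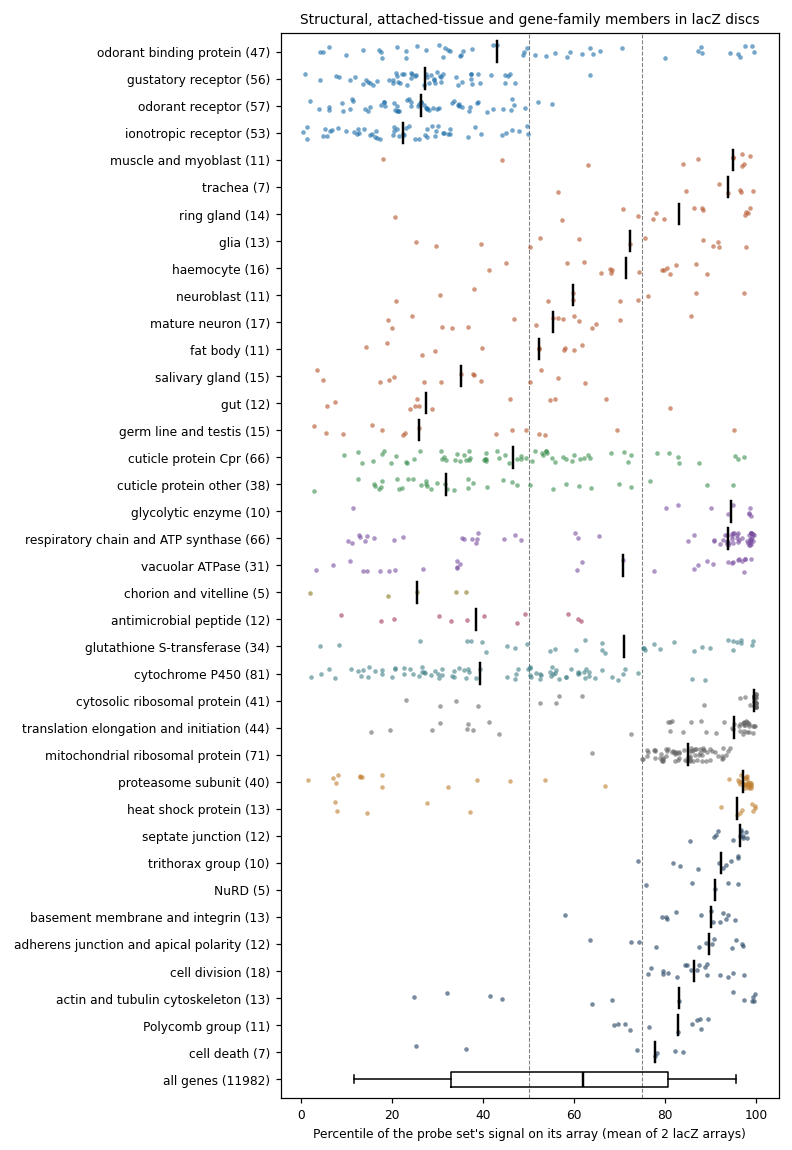
Percentile of each structural, attached-tissue and gene-family member (x axis, mean of the 2 lacZ arrays), drawn as in the plot of regulators, with all 11982 genes in the box at the bottom. Muscle, trachea and ring gland genes lie to the right, with group medians of 94.8, 93.9 and 83.0, while odorant, gustatory and ionotropic receptor genes lie to the left of the array median.

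Markers of tissues that neighbour the disc were unevenly represented. The ring gland, the endocrine organ that makes ecdysone and juvenile hormone beside the brain, was represented by 13 of 14 genes above the median and 8 above the 75th percentile. The ecdysone synthesis gene spok had 7868 and 11745, sro had 1445 and 1464 and nvd had 1240.1 and 1692, the sterol transfer gene Start1 had 7139 and 8702 and the cholesterol transporter gene Npc1a had 6254 and 6793. The corpus allatum enzyme gene jhamt, of juvenile hormone synthesis, had 809 and 548, and the hormone gene Akh of the corpora cardiaca had 726 and 376. The prothoracicotropic hormone receptor tor was dimmer at 104 and 103, and Cyp303a1 lay below the median at 1.8 and 20.6. The summed signal of the 14 genes was 34247 and 40957. None of 13 ring gland genes above the median on at least 1 array was over 2-fold apart.

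Of 16 blood cell genes 14 lay above the median and 7 above the 75th percentile on both arrays. The crystal-cell gene PPO1 had 1203 and 1372, the plasmatocyte scavenger receptor gene crq had 740 and 975, He had 595 and 1116 and NimC1 had 112 and 129. The lamellocyte gene PPO3 was below the median on both arrays at 30.3 and 32.4. The summed haemocyte signal was 8560.2 and 9996. Col4a1, vkg and ush of this group were also in other groups.

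Muscle genes were bright and differed between the arrays. Of 11 genes 8 lay above the 75th percentile on both arrays. The myosin light chain genes Mlc1 and Mlc2 had 17509/7826 and 2993/801, the paramyosin gene Prm 11282 and 3399, the titin-like genes bt and sls 8991/3384 and 1818/644, the troponin T gene up 4776 and 2449 and the tropomyosin gene Tm2 8698 and 4383. All 7 were higher on replicate 1. The troponin C gene TpnC73F had 2512 and 4405, higher on replicate 2. The myoblast factor gene twi had 184 and 246, above the median, and the flight muscle actin gene Act88F had 18.9 and 58.9. The summed muscle signal was 58783 and 27613.

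Of 7 genes listed for trachea 5 lay above the 90th percentile on both arrays: the chitin-binding gene Gasp had 15947 and 15175, the luminal matrix gene pio 4852 and 4633 and the chitin deacetylase genes serp and verm 4990.4/4155 and 1996/2133, while the tracheal FGF receptor btl had 91.6 and 92.6. The factor trh was not analysed here. Of 13 glial genes 6 lay above the 75th percentile. The glial homeobox gene repo had 481 and 456, the blood-brain barrier receptor moody had 569.8 and 604 and the G-protein regulator loco had 1538 and 1360.3, while the wrapping glia gene wrapper had 49.2 and 59.3, and gcm2 lay below the median at 15.8 and 13.7. Gli and nrv2 of this list are also septate junction genes. Of 17 mature neuron genes 10 or 58.8% lay above the median on both arrays, against 60.3% of all genes, and 6 lay below it. Above the 75th percentile on both arrays was 1, Appl at 1255 and 1123. The synaptic genes nSyb, brp and Snap25 had 77.2/107, 61.2/96.8 and 287.5/217.5. Among transmitter genes, Gad1, VGlut and VAChT lay below the median at 12.3/3.9, 0.8/22.2 and 19.7/12.1, and SerT lay above it at 232.4 and 115.8. The neuroblast genes dpn, mira and wor had 609/607, 168/124 and 39.9/12.7, the last below the median.

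Markers of salivary gland, germ line and gut lay mostly below the median, and those of fat body around it. Of 15 salivary gland genes 3 lay above the median and 0 above the 75th percentile on both arrays. The glue genes Sgs1, Sgs3, Sgs7 and Sgs8 had 4.6/8.8, 6.5/7.7, 27.8/18 and 8/3.7. The fat body genes Lsp2 and Fbp1 had 105/116 and 63.5/47.8, and of 11 fat body genes 6 lay above the median on both arrays and none above the 75th percentile. Of 15 germ line and testis genes 11 lay below the median on both arrays. The germ line genes vas, osk and bam had 1.9/33.7, 2.3/13.7 and 50.8/77.4, and the testis genes aly and dj had 1.7/2.2 and 1.5/1.1. The single gene of that group above the 75th percentile was ovo, also known as shavenbaby in the epidermis, at 3847 and 3148. Of 12 gut genes 8 lay below the median on both arrays and 1 above the 75th percentile, the lysosomal mannosidase gene LManII at 611 and 1172, and the digestive proteases such as betaTry at 8.4 and 13.8 were low. How much of the signal of any group came from attached tissue and how much from the disc was not tested.

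Receptor genes of adult smell and taste were low, with 2 of 57 odorant receptor, 1 of 56 gustatory receptor and 0 of 53 ionotropic receptor genes above the median on both arrays, against 60.3% of all genes. The co-receptor gene Orco had 39.1 and 30.2, and the single gustatory receptor gene above the median, Gr61a, had 223 and 220.2. Odorant binding protein genes, which encode small secreted carriers, were spread from the bottom to the top of the array. Of 47 genes 19 or 40.4% lay above the median on both arrays, against 60.3% of all genes, and 24 lay below it. Above the 75th percentile were 10 or 21.3%, against 30.9% of all genes, led by Obp56a at 28419 and 17039, Obp56d at 22232 and 9468, Obp56e at 11141 and 2871, Obp99a at 5783 and 6353 and Obp49a at 7341 and 2878. Of 66 cuticle protein genes of the Cpr family 6 lay above the 75th percentile on both arrays, with Cpr51A at 5861 and 5431, Cpr49Ac at 3513 and 5196 and Cpr12A at 3096 and 4289. Of 81 cytochrome P450 genes 2 did, Cyp4e2 at 1257 and 1927 and Cyp6a17 at 1435 and 1013, and of 12 antimicrobial peptide genes none did.

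The 2 arrays ranked genes alike, with a Pearson correlation of log2(signal + 3) of 0.959 and a Spearman rho of 0.920 across 18769 probe sets, which are not independent replicates. The pseudocount of 3 is the 10th percentile of all values and shrinks the differences of dim genes. Among 7799 genes above the median on at least 1 array, 505 or 6.48% were over 2-fold apart: 340 or 4.36% were higher on replicate 1 and 165 or 2.12% higher on replicate 2. Among 3697 genes above the 75th percentile on both arrays the count was 39, of which 34 were higher on replicate 1. A difference between 2 arrays has no replicate of its own, so it is given as a description.

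**Figure D4:**
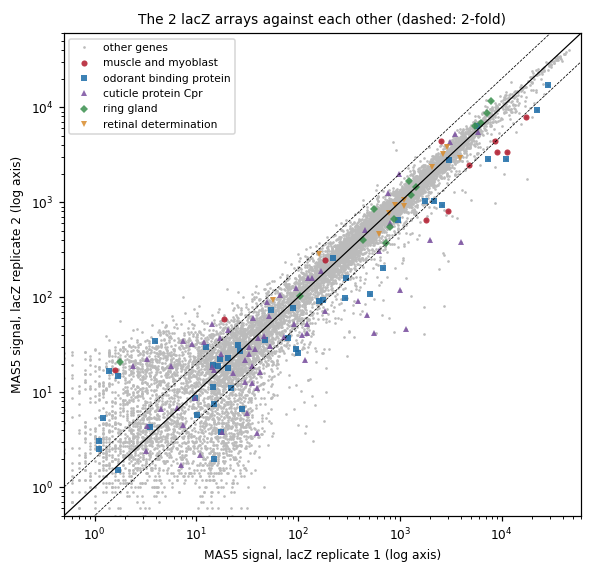
MAS5 signal of each named gene on lacZ replicate 1 (x) against replicate 2 (y), both on log axes, with the line of equal signal and dashed lines at 2-fold; colours and shapes mark 5 gene groups. Retinal determination genes, and ring gland genes other than Cyp303a1, lie between the dashed lines, while most bright muscle and odorant binding protein genes and part of the Cpr cuticle genes lie below it, higher on replicate 1.

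Several groups held a larger share of genes over 2-fold apart than the 6.48% of the 7799 genes above the median on at least 1 array. Of 10 muscle genes 5 were over 2-fold higher on replicate 1, against 4.36% of the 7799, and 1 was on replicate 2. The median log2 difference of the group, replicate 2 minus replicate 1, was -1.07 against 0.03 over the 7799. Of 23 odorant binding protein genes 11 were over 2-fold higher on replicate 1 and 0 on replicate 2, with a median of -0.88. Of 34 Cpr genes 13 were higher on replicate 1 and 2 on replicate 2. Single Cpr genes were far apart, with Cpr11B at 3999.7 and 383, Cpr100A at 1159 and 46.3 and Cpr67B at 1979 and 402, beside Cpr51A, which was nearly equal. Energy metabolism genes were mostly higher on replicate 1 as well, by less. The respiratory chain genes had a median of -0.35, with 44 of 49 higher on replicate 1, and the glycolytic genes a median of -0.67, with Ald1 at 12799.6 and 6877 and Gapdh1 at 14875 and 8675. Proteasome genes lay the other way, with 27 of 28 higher on replicate 2 and a median of 0.30. Beside these differences stand the controls given above. The 5′ ends of the actin controls were 2.33-fold to 5.30-fold higher on replicate 2. The spike controls dap, lys, phe and thr were at a median of 2.58-fold higher on replicate 1. The part of these controls in the differences was not tested.

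Some other groups held no gene over 2-fold apart, both among disc genes and among markers of attached tissue. The share over the 7799 genes was 6.48%, so a count of 0 within any 1 group of so few genes is close to it. Dim genes weigh on that share. Among the 3697 genes above the 75th percentile on both arrays, 39 or 1.05% were over 2-fold apart. None of 11 retinal determination, 22 photoreceptor, 17 antennal, 11 Hedgehog, 11 Enhancer of split and Bearded, 12 septate junction or 18 cell division genes was, and their group medians lay between -0.09 and 0.08. None of 13 ring gland, 7 trachea, 11 mature neuron, 8 neuroblast or 6 fat body genes was either. Among other lists of disc genes, 3 of 16 ecdysone response, 2 of 18 broadly used factor and 1 of 6 activin genes were over 2-fold apart. So were 1 of 14 wing, 1 of 13 basement membrane and integrin and 1 of 10 cytoskeletal genes. The cytoskeletal one was the flight muscle actin gene Act88F, which is also counted among the muscle genes above. Among other markers of attached tissue, 2 of 11 glial, 2 of 4 gut and 1 of 15 haemocyte genes were. The 5 largest differences toward replicate 1 were in CG14419 at 1747 and 41.5, CG7299 at 2739.7 and 80.7, Cpr100A, CG42329 at 139.7 and 3.1 and Antdh at 179.9 and 5. Those toward replicate 2 were in beat-IIIa at 1.8 and 56.5, Him, a muscle-progenitor gene, at 7.4 and 101, SIFaR at 2.4 and 45.4, Or65b at 2.6 and 45.9 and CG7335 at 3.7 and 51.1, all close to or below the array median on both arrays. Bright genes, chosen here after their values were seen, were CG7203 at 17698 and 1761, CG13545 at 8665 and 985 and Lcp65Ac, a larval cuticle gene, at 10653 and 1967 toward replicate 1, and CG9021 at 852 and 4342 toward replicate 2.

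**Figure D5:**
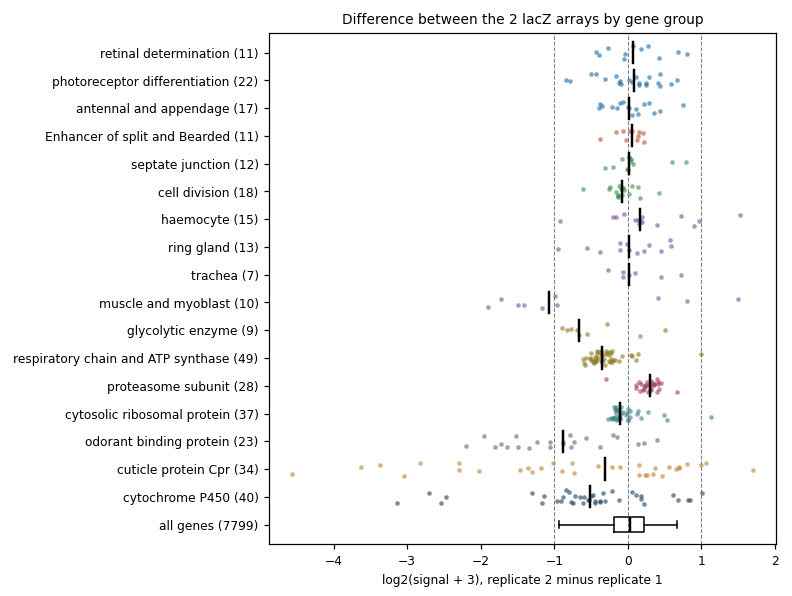
Difference between the 2 lacZ arrays for each gene above the median on at least 1 array (x axis, log2(signal + 3), replicate 2 minus replicate 1), by group, with the number of genes, a black bar at the group median and, at the bottom, a box with 5th to 95th percentile whiskers for all 7799 genes. Muscle, odorant binding protein and glycolytic genes are shifted to the left with medians of -1.07, -0.88 and -0.67, while the medians of retinal determination, antennal and septate junction genes lie between 0.02 and 0.06.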

How the data were processed

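Eye-antennal discs of 2 lacZ samples were hybridised to 1 Affymetrix Drosophila array each. The authors deposited linear MAS5 signal intensities, per the submitters' processing notes, which give no version, and the annotation build is not given in the sources used here. Trimmed by 2% of probe sets at each end, the mean was the same on both arrays, and no further normalization was applied here. Labels give 100 ng of total RNA from 100 disc pairs and cDNA amplified in a pair of rounds from the 3′ end, so signals weigh 3′ sequence. The number of arrays, 2, limits the precision, and no depth applies to arrays.

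Of 18952 probe sets, 183 array controls were left out. Of the other 18769, the platform annotation gave 1 gene symbol for 13647, several for 402 and none for 4720, and the unnamed and multiply named ones entered percentiles only. Symbols were updated through RefSeq's gene table for 13544 and kept as given for 103. A gene was represented by its probe set with the highest mean signal, which gave 11982 genes. Percentiles were taken per array over the 18769 probe sets. Differences between arrays were log2(signal + 3), replicate 2 minus replicate 1, over genes above the median on at least 1 array. The percentile step and a copy of the difference formula were tried on simulated arrays with less spread between replicates than the real ones.

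The members and lists were chosen with earlier results of these data known. In addition, 2 family definitions were corrected after values were seen: accessory gland genes were taken out of a cuticle family, and RpL37-1 and RpL37-2 were added to the ribosomal one. Genes named are the 25 with the highest mean signal, members of lists and families, the 5 largest differences between arrays each way, and ey, vg and simj; exceptions are marked. No test between groups was made, and the 6 arrays of other genotypes were not used here. Alternatives changed the probe set per gene, the percentile base and threshold, the pseudocount, the scaling and the filter, and left out each array. Chromosome arm and sequence features were not analysed here. Python 3.11.15, pandas 2.3.3, NumPy 2.4.6 and matplotlib 3.10.9 were used.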

Additional observations from a re-analysis of the deposited data

How the results depend on the processing

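Over all 522 list members together, the share in the upper bands kept its side of the background under each alternative run. Counts of single lists and families moved in part. With percentiles over named probe sets 14 of 128 were labelled as moved. The lowest probe set of each gene gave 6 of 128, the mean over probe sets 3 of 128 and the 90th percentile 38 of 64. The count of 429 of 522 list members above the median was 385 with the lowest probe set of each gene, 407 with the mean over probe sets, 381 with percentiles over named probe sets, 424 with the highest Tag control as the threshold, which was chosen after seeing the data, and 434 to 438 with either array left out. The count of 266 above the 75th percentile was 228 to 280 under the same planned changes and 113 at the 90th percentile, where a smaller count follows from the threshold. The median percentile of the 522 genes was 76.9, and 71.8 with the lowest probe set of each gene, and lay between 76.4 and 76.9 with either array left out. The replicate correlation of 0.959 was 0.976 with 4 times the pseudocount.

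The count of 505 genes over 2-fold apart lay between 416 and 546 with the other pseudocounts, quantile normalization or median centring. It was 2046 with no filter on low signals, 102 among genes above the 75th percentile on at least 1 array, and 39 among those above it on both, the last chosen after seeing the data. The share higher on replicate 1 was 67.3% of the 505, 52.1% with no filter, 87.3% of the 102 and 87.2% of the 39. The median log2 difference of Cpr cuticle genes reversed to 0.52 over the 6 genes above the 75th percentile on both arrays, against -0.31 over 34; fewer genes entered. No paired analysis was possible because a single group was described and no groups were compared. With 2 arrays the spread of a gene's signal rests on 1 difference, dim genes near the array median have no detection call in the values used, and genes without a probe set of their own were not analysed here.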

Other observations

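Genes outside the lists also had signal. Of 77 genes annotated as long non-coding RNAs in RefSeq's gene table, 16 or 20.8% lay above the median on both arrays, against 60.9% of 11796 protein-coding genes, and of 13 annotated as antisense RNAs 1 did. Of 4720 probe sets without a gene symbol, 889 or 18.8% lay above the median on both arrays and 281 above the 90th percentile.

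Neighbouring genes were at times high together. There were 6 runs of at least 4 consecutive measured protein-coding genes above the 90th percentile on both arrays. The longest held 5 genes: Snap29, for a membrane fusion protein, CG5554, ytr, the initiation factor gene eIF6 and the BMP ligand gene gbb. Another held CG17271, RpS20, CG17272 and Adss. How often such runs would arise among genes placed at random was not tested.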
